A study of Mus musculus with 6 samples.

Results

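The enzymes that modify collagen before secretion and cross-link it afterwards were examined in 6 arrays of mouse sarcoma cell lines, 3 heterozygous and 3 null for Dicer. They were 10 listed genes, the lysyl oxidases Lox and Loxl1 to Loxl4, the lysyl hydroxylases Plod1 to Plod3, and the catalytic prolyl 4-hydroxylase subunits P4ha1 and P4ha2. A probe set counted as a member when the platform annotation tied it to exactly 1 of these symbols. This gave 16 of 45037 probe sets for 9 of the genes, among 18193 named genes on the array. Both probe sets of Loxl2 are annotated to a second gene as well, so Loxl2 has no value here. The lines are of strain C57BL6/J, were grown to confluence in culture, and carried either a single intact copy of Dicer or none, so that the control lines also lacked a copy. The sources used here do not say how Dicer was deleted. The series design speaks of 3 lines of each genotype and the titles of replicates. Nothing states that the arrays came from separate cultures, and the p-values therefore measure the spread between these arrays.

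Fibrillar collagen is built from proline-rich chains that are hydroxylated in the endoplasmic reticulum while they fold. Prolyl 4-hydroxylases, with alpha subunits from the P4ha genes, make the hydroxyproline that stabilises the triple helix, and lysyl hydroxylases make the hydroxylysine needed for sugar attachment and for stable cross-links. Both kinds of enzyme use iron, 2-oxoglutarate, ascorbate and oxygen, and several of their genes are known targets of the hypoxia-inducible factors. Lysyl oxidases are secreted copper enzymes that oxidise lysines of collagen and elastin and so start cross-linking outside the cell. Dicer cuts microRNA precursors to mature microRNAs, and the comparison of null with heterozygous lines asks which transcripts differ when it is missing.

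RefSeq promoter windows of build GRCm38.p6, from 250 bases before to 50 bases after the start of the gene, were at hand for 5 of the 10 genes, namely Plod1, Plod3, P4ha1, P4ha2 and Loxl4. They were searched on both strands for the core of the hypoxia response element, ACGTG or GCGTG. All 5 windows held at least 1 match, against 43.8% of all 32851 windows of this length. The windows of the 5 genes were rich in G and C, with a median of 70.3% against 52.7% for all windows. Among the 15976 windows with at least the 53.3% of Plod3, the lowest of the 5, 61.5% held a match. Plod1, P4ha1, P4ha2 and Loxl4 had 64.3%, 70.3%, 70.3% and 75.0%, so that set is not matched to the 5 in composition. None of the 5 held the overlapping letters CACGTG, which 7.15% of all windows did. The windows of P4ha1 (chr10:59323046-59323345, plus strand), P4ha2 (chr11:54100674-54100973, plus strand) and Plod3 (chr5:136986769-136987068, plus strand) are shown. Among the 5, these genes had the smallest root mean square differences over the arrays, with the values given below. By that measure genes with little spread are close whatever their pattern, and shared regulation was not tested. Capitals mark the matches, 3 in P4ha1, 4 in P4ha2 and 4 in Plod3.
P4ha1: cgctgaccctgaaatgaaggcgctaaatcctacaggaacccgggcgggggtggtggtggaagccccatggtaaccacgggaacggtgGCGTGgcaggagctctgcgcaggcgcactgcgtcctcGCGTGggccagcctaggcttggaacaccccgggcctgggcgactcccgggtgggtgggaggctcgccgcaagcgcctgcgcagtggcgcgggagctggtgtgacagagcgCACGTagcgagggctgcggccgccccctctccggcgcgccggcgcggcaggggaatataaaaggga
P4ha2: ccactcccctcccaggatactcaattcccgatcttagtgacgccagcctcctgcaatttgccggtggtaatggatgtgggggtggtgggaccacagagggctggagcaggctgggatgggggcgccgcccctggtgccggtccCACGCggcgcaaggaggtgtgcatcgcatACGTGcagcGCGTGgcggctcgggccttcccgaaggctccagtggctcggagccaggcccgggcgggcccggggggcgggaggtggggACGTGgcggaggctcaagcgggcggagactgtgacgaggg
Plod3: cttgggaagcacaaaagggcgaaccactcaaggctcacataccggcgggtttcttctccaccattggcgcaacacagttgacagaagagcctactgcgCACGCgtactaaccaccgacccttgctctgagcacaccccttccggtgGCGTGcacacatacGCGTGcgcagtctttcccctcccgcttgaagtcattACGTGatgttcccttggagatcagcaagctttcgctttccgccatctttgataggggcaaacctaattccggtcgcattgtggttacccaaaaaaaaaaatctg
A match of 5 letters is a description of the window and was not tested for binding.

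Each array gave log2 values per probe set, made with GCRMA, between 0.40 and 14.18, with medians of 3.32 to 3.43. Tests covered the 24385 probe sets with a mean of at least 3, which covered 11425 genes, the brightest of them on average standing for each gene. All 9 measured members passed this minimum, with 14 of their 16 probe sets. A value is comparable between arrays for the same probe set but not between probe sets, so levels of different genes are not ranked. The means over marker lists given below are only a rough description of each list. The probe sets of Dicer1 overlapped between the groups, with means of 8.32 and 8.46 for the brighter, and the part of the gene that was deleted is not given in the sources used here, so they check nothing. Nr6a1, the gene in the title of the series, rose by 3.37 on the log2 scale (SE 0.20; limma adjusted p = 0.00647). Of the mesenchymal markers, vimentin, the collagen I genes, Prrx1, Twist1 and Twist2 read between 10.45 and 13.84 in all arrays. Pdgfra and S100a4 were lower in null arrays without overlap (log2 differences -1.63 and -1.37), and Pdgfrb was lower with overlap (-1.03). None of them passed (limma adjusted p = 0.0593, 0.0570 and 0.186). By sign, 4 of the 11 tested markers were higher and 7 lower. The mean over 12 mesenchymal markers lay between 10.1 and 10.6 in all arrays, although Thy1 stood under 2 in 5 of them and Fap rose (log2 difference 4.97, limma adjusted p = 0.0408; kept among the 6 omissions of an array only without null replicate 2, 0.0463, and otherwise 0.0624 to 0.144). The heterozygous mean of Fap, 2.98, lies under the minimum of 3, so Fap was tested only through its null arrays. With values under 3 set to 3 it was called (limma adjusted p = 0.0425), and without a minimum it was not (0.0593). The endothelial markers averaged 1.80 to 2.07 and the leukocyte markers 2.12 to 2.52, with 5 of the 6 measured in each list below 3 in all arrays. The exception among leukocyte markers was Cd68, at 4.43 to 7.13. Skeletal muscle markers averaged 2.04 to 2.47, epithelial 2.13 to 3.45 and adipocyte markers 4.32 to 6.0. Of the adipocyte markers, Adipoq and Cidec stood below 3 in all arrays. Fabp4 overlapped, at 8.55, 9.73 and 8.87 in the heterozygous and 7.92, 5.33 and 10.18 in the null arrays. Pparg was higher in null arrays without overlap, at 6.55, 7.31 and 7.04 against 7.55, 7.79 and 9.66. It did not pass (log2 difference 1.37, limma adjusted p = 0.226). Heterozygous replicate 1 stood apart in several markers: Krt18 read 9.02 there and 2.0 to 2.68 elsewhere, Actg2 6.62 against 1.54 to 2.43, and Lmod1 6.54 against 2.27 to 3.38. Myh3 read 4.27 there and 2.41 to 3.13 elsewhere (log2 difference -0.27, limma adjusted p = 0.782). Null replicate 2 stood apart in Epcam, at 5.21 against 2.53 to 3.55 elsewhere (log2 difference 0.78, limma adjusted p = 0.488). The same array read 3.66 for Krt8, against 2.14 to 2.96 elsewhere. Cartilage and bone markers averaged 3.88 to 5.08 in heterozygous and 3.45 to 3.62 in null arrays, with Sp7 and Ibsp below 3 throughout.

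Loxl3, a lysyl oxidase that acts on collagen and fibronectin in developing cartilage and muscle attachments, had the largest difference of the members and was lower in the null lines. Its values were 11.42, 12.04 and 12.57 in heterozygous replicates 1, 2 and 3 and 8.16, 9.63 and 10.60 in null replicates 1, 2 and 3. Every null array lay below every heterozygous array, and null replicate 1 was far below the rest. The means were 12.01 ± 0.58 and 9.46 ± 1.23 (SD, n = 3 each), a 5.84-fold lower level in null lines, with a 95% interval from 1.99-fold to 17.2-fold. With p-values adjusted by the Benjamini-Hochberg method, limma's moderated test did not call it (log2 difference -2.55, SE 0.64, adjusted p = 0.0878). Without null replicate 1 the log2 difference was -1.90, and without null replicate 3 it was -3.12. Of 7 markers of contractile smooth muscle 3 were tested, and 2 of these, Acta2 and Tagln, fell, where 3.46% of all tested genes were called. The mean over the 7 lay between 4.96 and 6.94 in heterozygous and between 3.06 and 3.72 in null arrays. The tested marker Lmod1 did not pass (log2 difference -1.80, limma adjusted p = 0.309), Myh11 stood below 3 in all arrays, and Des overlapped, at 3.57, 2.25 and 2.30 against 3.42, 2.80 and 2.62. Acta2 fell by 6.56 on the log2 scale (limma adjusted p = 0.0169; 0.0569 without heterozygous replicate 2 and 0.0795 without null replicate 2), although its tested probe set without an s or x suffix gave 0.50, and Tagln fell by 5.27 (limma adjusted p = 0.0238; 0.0600 to 0.0979 without a null array). Of the cartilage and bone markers, Sox9 was also lower without overlap, at 9.48, 10.31 and 10.62 against 8.01, 8.73 and 8.82, and did not pass (log2 difference -1.62, limma adjusted p = 0.0715). Acan read 5.6 and 6.97 in heterozygous replicates 1 and 2 and 2.28 to 2.57 in the other arrays. The part of these markers in the difference of Loxl3 was not tested. In cell lysates fewer cells of a type and less RNA per cell cannot be told apart.

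Lox, the founding lysyl oxidase and the main cross-linker of collagen and elastin in most connective tissues, was slightly lower in null arrays. Its brighter tested probe set gave 12.17, 12.77 and 12.85 in the heterozygous and 12.13, 11.43 and 12.14 in the null arrays. The groups did not overlap, but heterozygous replicate 1 lay just above null replicates 1 and 3. The means of 12.6 ± 0.37 and 11.9 ± 0.41 (SD, n = 3) differed by -0.70 on the log2 scale (SE 0.29; limma adjusted p = 0.220), with a 95% interval from -1.40 to 0.01. The other tested probe set of Lox gave the same difference within its error (-0.69, SE 0.31) but its groups overlapped, with 11.74 in heterozygous replicate 1 and 11.80 in null replicate 3. Its remaining probe set read between 1.09 and 1.61, near background, and was not tested.

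Loxl1, which binds tropoelastin and is needed to renew elastic fibres, also lay lower in null arrays, by an amount that differed between arrays. The values were 10.67, 11.43 and 11.62 in the heterozygous and 10.97, 10.27 and 9.48 in the null arrays. The groups overlapped through heterozygous replicate 1 and null replicate 1. The log2 difference was -1.0 (SE 0.44; limma adjusted p = 0.237), a 2-fold lower mean with a 95% interval from 0.96 to 4.17. The dimmer probe set gave a larger difference of -1.72 (SE 0.69; limma adjusted p = 0.207), since null replicate 3 fell there to 5.04 while null replicate 1, at 7.87, equalled heterozygous replicate 1. The SD among null arrays was 1.42 in that probe set against 0.39 among heterozygous arrays. In both probe sets null replicate 3 was the lowest array and null replicate 1 the highest of the null arrays.

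Loxl4, a lysyl oxidase-like enzyme with scavenger receptor domains, did not differ in any settled direction. The heterozygous arrays ranged widely, at 9.22, 8.11 and 6.51, while the null arrays lay close together at 8.4, 8.19 and 8.14. The SD was 1.36 in heterozygous and 0.14 in null arrays, and all the null values fell inside the heterozygous range. The log2 difference of 0.30 (SE 0.65; limma adjusted p = 0.820) had a 95% interval from -1.27 to 1.86. Without heterozygous replicate 3 its sign turned, to -0.42. The dimmer probe set, at 3.89, 3.39 and 2.74 against 3.70, 3.51 and 3.43, showed the same order of arrays.

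**Figure D1:**
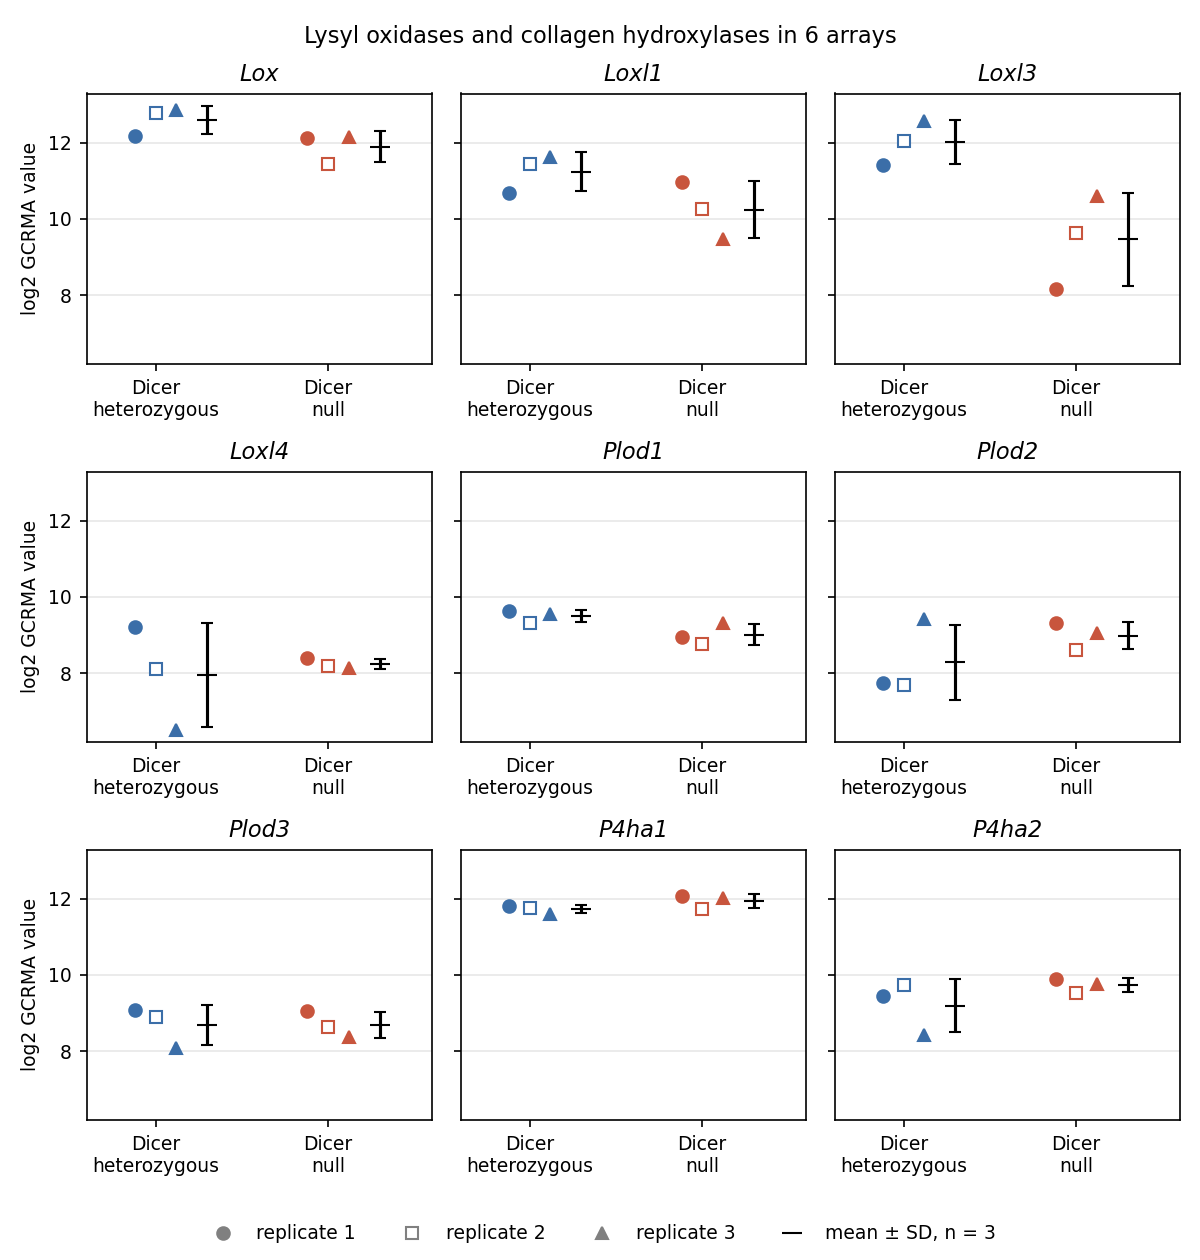
Log2 GCRMA value (vertical axis) of the brightest probe set of each of the 9 measured genes, in the Dicer heterozygous (blue) and Dicer null (red) arrays; symbols give the replicate, and bars the mean ± SD (n = 3). Loxl3 is the gene with the widest gap between the groups, 10.60 in the highest null against 11.42 in the lowest heterozygous array, and the positions of different genes on the axis are not comparable.

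Of the lysyl hydroxylases, Plod1 was slightly lower, Plod2 higher and Plod3 level in the null arrays, and the groups overlapped for each of them. Plod1, the enzyme for lysines inside the collagen helix, read 9.63, 9.31 and 9.55 in the heterozygous and 8.95, 8.76 and 9.32 in the null arrays. Null replicate 3 alone reached into the heterozygous range. The log2 difference was -0.49 (SE 0.21; limma adjusted p = 0.227), and the 95% interval ran from -0.99 to 0.02. A further probe set of Plod1 lay at 2.16 to 2.52 in all arrays and was not tested.

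Plod2 hydroxylates the lysines of the collagen telopeptides, which sets the type of cross-link formed, and it is a known hypoxia target. It read 7.74 and 7.69 in heterozygous replicates 1 and 2 but 9.41 in heterozygous replicate 3, and 9.31, 8.61 and 9.04 in the null arrays. Heterozygous replicate 3 was thus higher than all null arrays, whereas the other heterozygous arrays were below all of them. The log2 difference was 0.71 (SE 0.50; limma adjusted p = 0.444), with a 95% interval from -0.50 to 1.92. Without heterozygous replicate 3 it was 1.27, close to but not past the threshold (limma adjusted p = 0.0597). The other probe set of Plod2 repeated the pattern, with 6.98, 7.92 and 9.26 against 9.24, 8.84 and 9.16 and a log2 difference of 1.03 (SE 0.56).

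Plod3, which besides lysyl hydroxylation can add glucose to collagen, gave equal means of 8.69 in both groups. Its values were 9.07, 8.90 and 8.09 in the heterozygous and 9.06, 8.64 and 8.36 in the null arrays. The log2 difference of 0.00 (SE 0.32) had a 95% interval from -0.78 to 0.78, which reaches 1.72-fold in either direction.

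The prolyl 4-hydroxylase subunits had small positive differences, neither of which passed. P4ha1, the main isoform in most tissues, read 11.80, 11.76 and 11.60 in the heterozygous and 12.07, 11.72 and 12.01 in the null arrays. Null replicate 2 lay within the heterozygous values and the other null arrays above them. With a log2 difference of 0.21 (SE 0.17; limma adjusted p = 0.503) and a 95% interval from -0.20 to 0.63, P4ha1 was the member measured most precisely. Its other probe set gave 0.19 (SE 0.22).

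P4ha2, the isoform abundant in cartilage and bone, read 9.44, 9.73 and 8.42 in the heterozygous and 9.90, 9.53 and 9.76 in the null arrays. The groups overlapped through heterozygous replicate 2, and heterozygous replicate 3 was the lowest. The log2 difference was 0.53 (SE 0.36; limma adjusted p = 0.419), with a 95% interval from -0.33 to 1.40. Without heterozygous replicate 3 it was 0.15.

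Across the family, 0 of the 9 measured genes passed in limma's test at an adjusted p under 0.05, where 395 of all 11425 tested genes did, or 3.46%. At an unadjusted p under 0.05 the count was 1 of 9 genes, Loxl3, against 24.0% of all tested genes. The groups did not overlap for 2 of 9 genes, Loxl3 and Lox, against 32.2% of all tested genes. Of the 14 tested probe sets 0 passed, and 2 had an unadjusted p under 0.05, those of Loxl3 and the dimmer one of Loxl1. By sign, 4 genes were higher (Plod2, P4ha2, Loxl4 and P4ha1), 4 lower (Loxl3, Loxl1, Lox and Plod1) and 1, Plod3, had no difference. The median log2 difference of the 9 genes was that of Plod3, and that of all tested genes was -0.01. What could have been called differed between genes because the spread did. At its own standard error P4ha1 would have needed a difference of 1.89-fold, Plod1 2.15-fold, Lox 2.93-fold, Loxl3 10.7-fold and Loxl4 10.9-fold to pass. The missing calls therefore do not show that these transcripts were equal in the 2 genotypes.

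**Figure D2:**
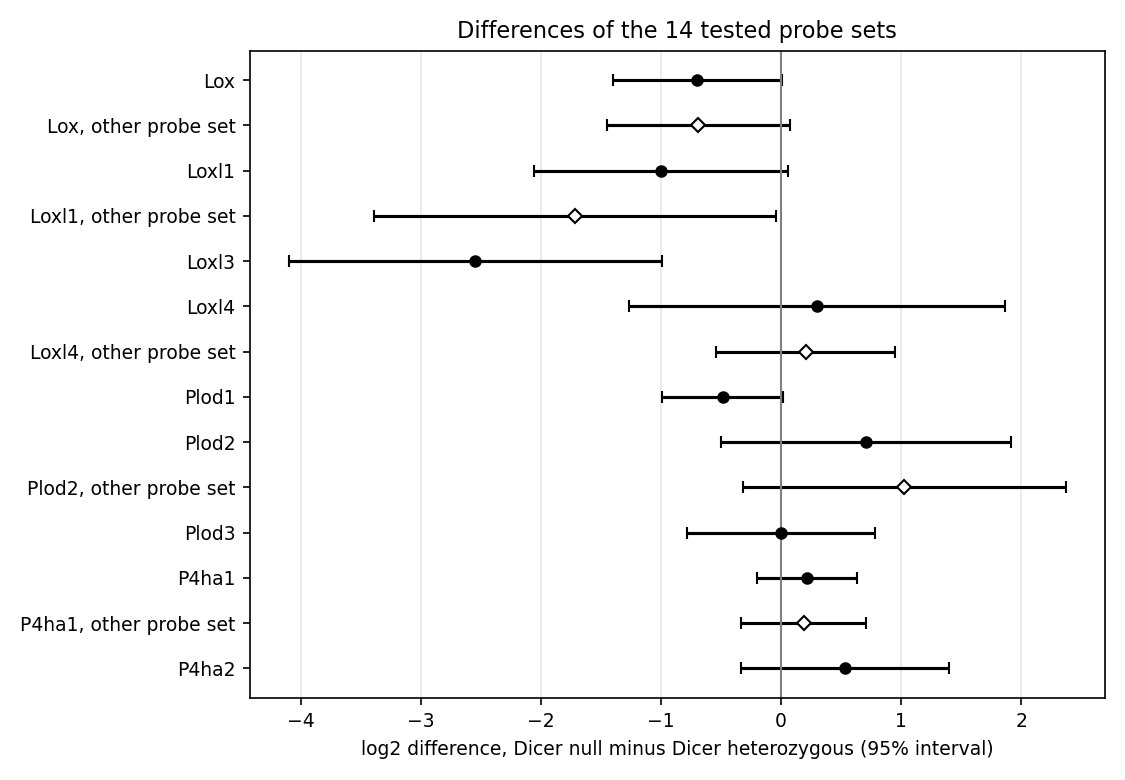
Log2 difference, Dicer null minus Dicer heterozygous (horizontal axis), of the 14 tested probe sets of the 9 genes, with limma's 95% interval; filled circles are the brightest probe set of a gene and open diamonds its other tested one. The interval of Loxl3 runs from -4.10 to -0.99 and lies furthest from 0, while those of Plod3 and P4ha1 are centred near 0, and for each gene with a pair of tested probe sets both point the same way.

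The array of heterozygous replicate 3 stood at an end of the range for most of the family. It was the highest of the 6 arrays for Lox, Loxl1, Loxl3 and Plod2 and the lowest for Loxl4, Plod3, P4ha1 and P4ha2, so 8 of 9 genes had an extreme value there. Over all tested genes that array was the highest or the lowest for 52.1%, more than any other array, the next being heterozygous replicate 1 with 41.7%. It also had the lowest level of proliferation markers, with a mean of 9.46 over 18 genes, where heterozygous replicates 1 and 2 had 10.38 and 10.41 and the null arrays 10.66 to 11.01. The part of this in the values of the collagen enzymes was not tested. Without that array 0 of the 9 genes passed, with log2 differences of -2.27 for Loxl3, -0.57 for Lox and 1.27 for Plod2.

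**Figure D3:**
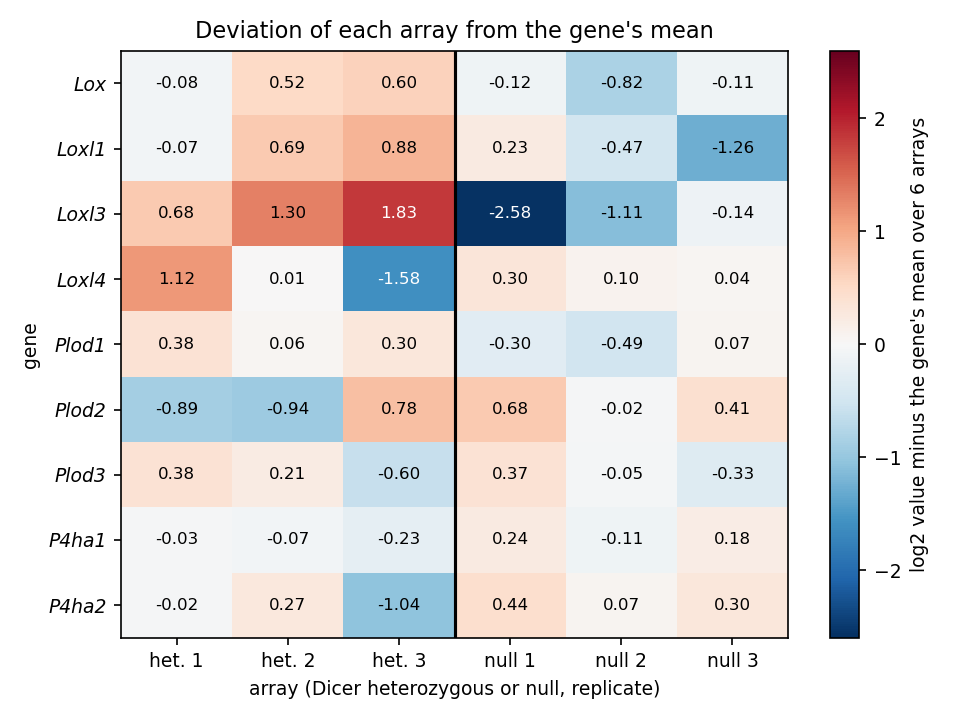
Deviation of each array (columns) from the mean of the gene over the 6 arrays (rows; colour and printed number, log2 units), with the Dicer heterozygous arrays on the left of the line and the null arrays on the right. Heterozygous replicate 3 holds opposite extremes, 1.83 for Loxl3 and 0.88 for Loxl1 against -1.58 for Loxl4 and -1.04 for P4ha2, and Loxl3 in null replicate 1, at -2.58, is the lowest value of all.

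Within the family, similarity of pattern was measured as the root mean square difference of mean-centred log2 values over the 6 arrays. It was smallest between P4ha1 and Plod3 (0.33), Lox and Plod1 (0.34), Plod3 and P4ha2 (0.36) and P4ha1 and P4ha2 (0.38), and largest between Loxl3 and Loxl4 (1.97). Genes with little spread are close by this measure whatever their pattern. Outside the family, the genes most like Loxl3 were Fam131b (0.41) and Chst15 (0.44). Chst15, a sulfotransferase of chondroitin sulfate, read 8.13, 9.25 and 9.88 in the heterozygous and 6.34, 7.20 and 7.95 in the null arrays. Fam131b read 8.04, 8.52 and 8.58 against 4.65, 7.02 and 7.04. Neither passed the test (limma adjusted p = 0.118 for Chst15 and 0.129 for Fam131b).

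The clearest differences among collagen hydroxylases lay outside the 10 genes. P4ha3, the third alpha subunit of prolyl 4-hydroxylase, fell from 10.29, 10.53 and 10.54 in the heterozygous to 8.66, 7.79 and 8.66 in the null arrays. That was 4.24-fold (log2 difference -2.08, SE 0.28, limma adjusted p = 0.0251), on the only tested probe set of the gene. P3h3, a relative of the prolyl 3-hydroxylases that forms a complex with Plod1, fell 2.59-fold, from 9.0, 8.69 and 8.79 to 7.51, 7.33 and 7.52 (log2 difference -1.37, SE 0.17, limma adjusted p = 0.0203). In neither gene did the groups overlap. The calls of both were lost without heterozygous replicate 2 (limma adjusted p = 0.0849 for P4ha3 and 0.0642 for P3h3), null replicate 1 (0.0592 and 0.0632), null replicate 2 (0.0592 and 0.0850) or null replicate 3 (0.0803 and 0.0871), while the log2 differences stayed between -2.23 and -1.79 and between -1.44 and -1.29.

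P3h4, the other partner in the complex of P3h3 and Plod1, is named here after its values were seen. It read 9.11, 8.94 and 10.22 in the heterozygous and 6.95, 7.87 and 7.76 in the null arrays, without overlap, and did not pass (log2 difference -1.90, SE 0.42, limma adjusted p = 0.0673), although it was called with gene-by-gene array weights. Plod1 itself differed by -0.49, as given above. Of the list of other collagen-modifying enzymes and their partners in the endoplasmic reticulum, 16 of 18 genes were tested. Called genes were 2 that fell and 0 that rose, where 3.46% of all tested genes were called. The median log2 difference of the list was -0.11. The collagen chaperone Serpinh1, at 12.5 and 12.7, and P4hb, the subunit that pairs with every P4ha protein, at 12.7 in both groups, were among those that did not pass.

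**Figure D4:**
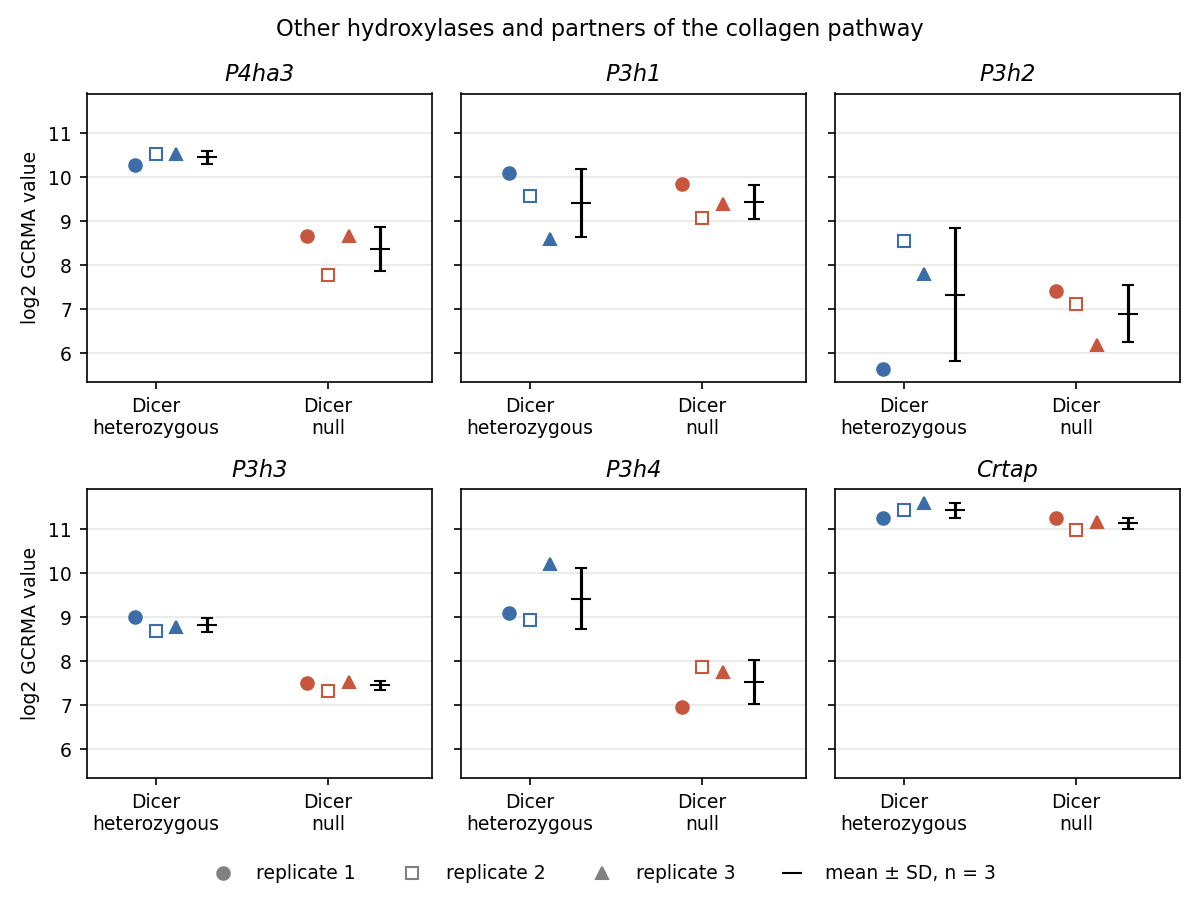
Log2 GCRMA value (vertical axis) of P4ha3, of the 4 genes of the prolyl 3-hydroxylase family and of Crtap in the Dicer heterozygous (blue) and null (red) arrays. Symbols give the replicate, and bars the mean ± SD (n = 3). P4ha3, P3h3 and P3h4 are separated by more than 1 log2 unit, of which P3h4 did not pass, while P3h1, with means of 9.42 and 9.44, overlaps.

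The fibrillar collagens, which are substrates of these enzymes, and their network partners were mixed. Of 18 tested fibrillar collagen and network genes 1 rose and 1 fell, where 3.46% of all tested genes were called, and the median was -0.14. Col11a1, a minor collagen that nucleates fibrils of cartilage, fell from 5.02, 8.42 and 9.65 to values under 2 in all null arrays (limma adjusted p = 0.0492). The null values of Col11a1 lie under the minimum of 3, so it was tested only through its heterozygous arrays. With values under 3 set to 3 it was not called (limma adjusted p = 0.0785). Its other tested probe set did not pass (log2 difference -4.58, limma adjusted p = 0.0624). Col24a1, a fibrillar collagen of developing bone, rose from 2.75, 3.36 and 2.59 to 4.59, 5.87 and 5.23 (limma adjusted p = 0.0377). The heterozygous mean of Col24a1, 2.90, lies under the minimum of 3, so it was tested only through its null arrays. With values under 3 set to 3 it was called (limma adjusted p = 0.0377), and without a minimum it was not (0.0516). The call of Col11a1 was kept only without heterozygous replicate 1 (0.00526) and lost without any other array (0.0579 to 0.160), and that of Col24a1 was lost without any array (0.0514 to 0.133). The abundant chains did not pass: Col1a1 read 12.30, 12.54 and 12.73 against 12.43, 11.52 and 11.27, and Col1a2 and Col3a1 differed by 0.01 and 0.17 on the log2 scale.

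Of 8 tested elastic fibre genes 2 fell and 0 rose, where 3.46% of all tested genes were called. The median was 0.05, and elastin itself lay below the minimum for testing. Fbln5, which brings Loxl1 to elastic fibres, fell 22.9-fold, from 9.87, 10.96 and 11.89 to 7.14, 5.05 and 6.97 (limma adjusted p = 0.0369). Mfap5, a microfibril glycoprotein, fell from 6.98, 5.04 and 8.74 to values of 1.68 to 2.01 (limma adjusted p = 0.0416). The null values of Mfap5 lie under the minimum of 3, so it was tested only through its heterozygous arrays. With values under 3 set to 3 it was not called (limma adjusted p = 0.0670). Its other tested probe set gave a smaller difference and did not pass (log2 difference -2.36, limma adjusted p = 0.115). Fbln5 remained called only without heterozygous replicate 1 (0.0408; 0.0525 to 0.109 without another array) and Mfap5 only without heterozygous replicate 2 or 3 (0.0357 and 0.0316; 0.0777 to 0.136 without another array). The groups did not overlap for 7 of the 8 genes, against 32.2% of all tested genes, and in both directions. Null arrays were the lower ones for Fbln5, Mfap5, Ltbp3 and Ltbp4 and the higher ones for Fbn2 (log2 difference 3.61, limma adjusted p = 0.180), Mfap4 (2.40, 0.189) and Efemp1 (0.52, 0.168), which did not pass.

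Where 3.46% of all tested genes were called, 1 of 9 oxygen-sensing hydroxylases and hypoxia-inducible factors was called, and it rose. This was Hif1an, the asparaginyl hydroxylase that inhibits hypoxia-inducible factors, a 2-oxoglutarate enzyme like the collagen hydroxylases. It read 8.36, 8.88 and 8.30 in the heterozygous and 10.50, 10.47 and 10.18 in the null arrays, a 3.66-fold rise (log2 difference 1.87, SE 0.22, limma adjusted p = 0.0193). The call was lost without null replicate 1 (0.0619), 2 (0.0845) or 3 (0.0736). The list's median was 0.25, and Hif1a differed by 0.02.

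For the counts of the lists that follow, the shares over all tested genes were 3.46% called and 24.0% with an unadjusted p under 0.05. Of the 24 tested hypoxia targets 0 were called by limma, and 4 had an unadjusted p under 0.05. The median was 0.10, and the smallest p belonged to the hexokinase Hk2, at 10.97, 10.84 and 10.55 against 11.15, 11.61 and 11.69 (limma adjusted p = 0.133). Of the 11 tested cofactor genes 0 were called and 2 had an unadjusted p under 0.05, with a median of 0.05. The copper chaperone Atox1 came first there, at 10.8 and 10.2 (limma adjusted p = 0.0956). The 10 tested genes of procollagen export and processing had 0 calls, 1 unadjusted p under 0.05 and a median of -0.01. Adamts3, a procollagen II protease, came first (limma adjusted p = 0.0713). It read 1.31, 2.10 and 2.85 in the heterozygous and 5.78, 6.28 and 3.76 in the null arrays. Its heterozygous values lie under the minimum of 3, so it was tested only through its null arrays. The 15 tested genes of the TGF-beta response, a known driver of Lox and collagen expression, had 0 calls, 6 unadjusted p under 0.05 and a median of 0.00. Tgfb3 came nearest, at 9.71 against 8.06 (limma adjusted p = 0.0512). Of the 18 tested proliferation markers all had positive differences, with a median of 0.63. By limma 0 were called, and 5 had an unadjusted p under 0.05. The groups did not overlap for 10 of the 18, against 32.2% of all tested genes. Cdc6 had the smallest p, at 7.78, 7.83 and 7.30 in the heterozygous and 8.53, 9.30 and 8.99 in the null arrays (log2 difference 1.30, limma adjusted p = 0.0570).

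**Figure D5:**
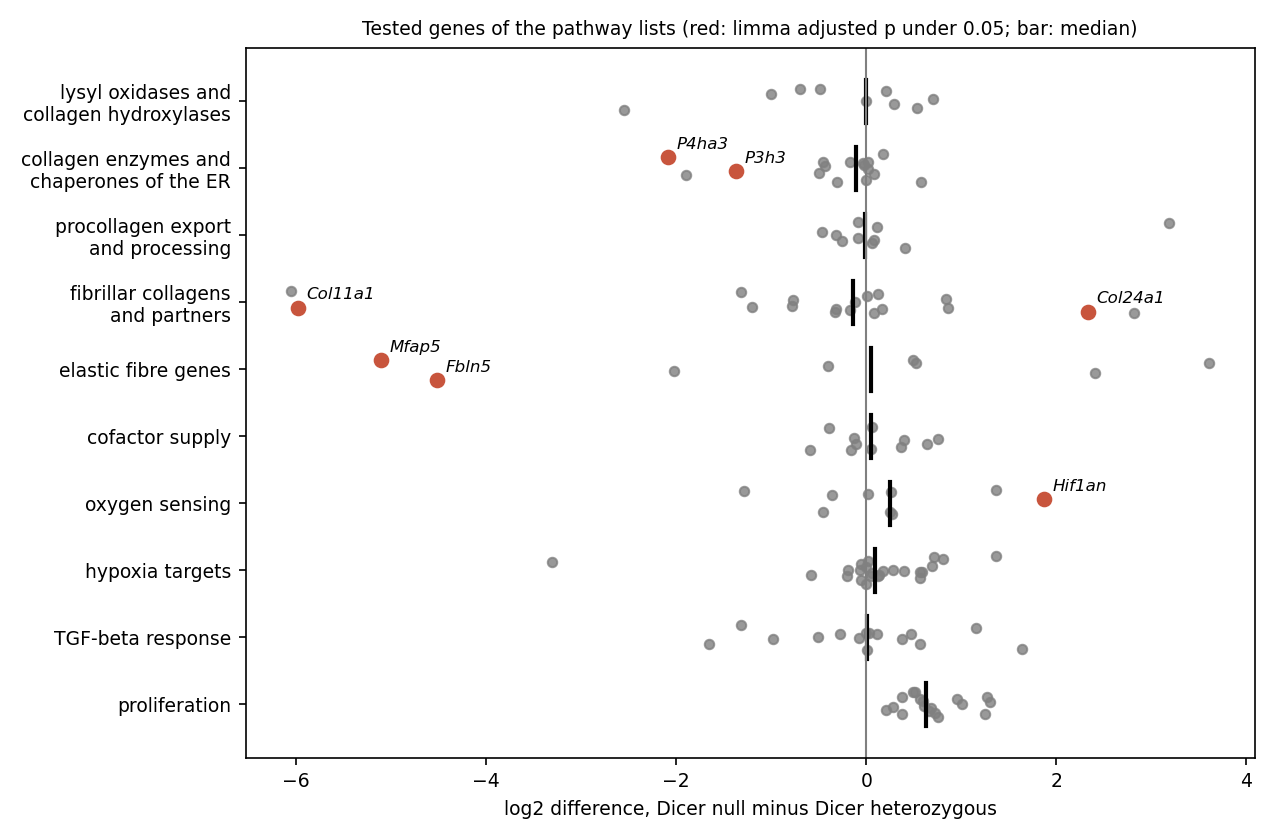
Log2 difference, Dicer null minus Dicer heterozygous (horizontal axis), of each tested gene (points) of the 9 measured collagen enzymes and of 9 lists of related genes (rows), with the median of each list as a bar; red points passed limma's test. The 9 enzymes spread from -2.55 to 0.71 around a median of 0 with no red point, and the called genes are P4ha3, P3h3, Col11a1, Col24a1, Mfap5, Fbln5 and Hif1an.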

How the data were processed

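Total RNA of 6 samples was hybridised to Affymetrix arrays, and the sample titles gave the genotypes. Each deposited value is a log2 expression level of a probe set. R 2.11.1 and GCRMA 2.20.0 are named per the submitters' processing notes, without parameters. That method adjusts background by probe composition and makes the distributions of the arrays alike. The log2 scale was inferred from the range of the values. Signal over background and the number of arrays, 3 per group, limit the precision.

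Genes were assigned from the platform table: 34945 probe sets had 1 symbol, 932 several and 9160 none, and 34741 matched the GRCm38.p6 RefSeq table by Entrez ID. Differences were tested with limma 3.58.1 in R 4.3.3 (lmFit and eBayes, no block, two-sided), with Benjamini-Hochberg adjustment over the 24385 probe sets with a mean of at least 3, at 0.05. The procedure was checked on simulated data. Figures were drawn with matplotlib 3.10.9.

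The members and lists were chosen with earlier results of these data known. The text names all members, Dicer1, Nr6a1, up to 4 called genes of each list or else the gene with the smallest p, and the 2 genes most like the member with the smallest p. Other named genes are context chosen after their values were seen. List genes without a probe set of their own were not analysed here. Alternatives were other minimums, trend and robust moderation, ordinary t statistics, array weights, renormalization, centring, a floor, the replicate number as a block, other probe set choices and each array left out.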

Additional observations from a re-analysis of the deposited data

How the results depend on the processing

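The count of 0 called members held in 18 of the 19 alternatives, and gene-by-gene array weights gave 1, Loxl3 (log2 difference -2.61, limma adjusted p = 0.0479; 0.0639 to 0.214 in the other alternatives). The cause was not tested for this or the other changes below. The sign of each member but Loxl4 (-0.42 without heterozygous replicate 3, up to 0.93 without heterozygous replicate 1) and Plod3 (-0.30 to 0.19 around a difference of 0) was kept in all 19. The count of 395 called genes became 0 with ordinary t statistics in limma's model (2442 at an unadjusted p under 0.05, 1 of them a member), 1496 with array weights and 73 with the replicate block. Without 1 array it was 31 to 464 (65 without heterozygous replicate 2, 108, 31 and 37 without null replicates 1, 2 and 3), and that of members 0 to 0. Deviations from the group means had correlations of -0.06, 0.11 and 0.24 between same-numbered arrays, and for 3 of 6 arrays the best match was the one with their number, so the numbers are not taken as pairs. With the replicate block Loxl3 had a limma adjusted p of 0.0684. With it, and likewise with ordinary t statistics, the lists of enzymes of the endoplasmic reticulum, fibrillar collagens, elastic fibre genes and oxygen sensing had 0 called genes each. Without a minimum level, fibrillar collagens and elastic fibre genes had 0 and procollagen export 1 (Creb3l1). With a minimum of 2 these 3 lists had 1 each (Col24a1, Fbln5 and Creb3l1). With values under 3 set to 3, fibrillar collagens had 1 (Col24a1) and elastic fibre genes 1 (Fbln5). Robust moderation and renormalization left 1 fibrillar collagen (Col24a1). The mean of the probe sets of a gene gave 1 elastic fibre gene (Fbln5) and 1 gene of the TGF-beta response (Tgfb3), the latter also called with a minimum of 4 and with an intensity trend. Array weights gave 4 elastic fibre genes (adding Fbn2 and Ltbp4), 3 enzymes of the endoplasmic reticulum (adding P3h4), 3 fibrillar collagens and partners (adding Fmod, also called with an intensity trend and without heterozygous replicate 1), 2 cofactor genes, 2 genes of the TGF-beta response, 1 hypoxia target (Car9), 1 procollagen export gene (Adamts3) and 1 proliferation marker (Cdc6). Without 1 array the lists had 0 to 2 (endoplasmic reticulum), 0 to 2 (fibrillar collagens), 0 to 3 (elastic fibres), 0 to 1 (oxygen sensing) and 0 to 1 (hypoxia targets, Car9 without heterozygous replicate 3) called genes, and 0 to 0 in the others. For the lists, the other minimums, the moderation settings, array weights and renormalization were added after seeing the data.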
